A study of Mus musculus with 15 samples.

Results

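The genes described here code for 9 proteins that fibroblasts secrete into the pericellular matrix: the thrombospondins Thbs1, Thbs2 and Thbs3, tenascin C (Tnc), periostin (Postn), Tgfbi, Sparc, osteopontin (Spp1) and fibronectin (Fn1). They were taken by symbol from a gene table of 55487 genes, and all 9 were found and passed the filter on low counts, as did 16678 genes in all. The list was drawn up by protein class with earlier results of the knockout against wild-type comparison already known, among them those of Tgfbi and Thbs2. Changes of its members are therefore a description and no independent evidence.

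The libraries were polyA RNA-seq of TTF cells (commonly, tail-tip fibroblasts) from female mice, hybrids of the strains C57BL6 and CAST, whose ages the labels do not give. The 3 wild-type libraries are called WT 1, WT 2 and WT 3. The 3 libraries of SIRT7-KO cells, labelled as knockouts of the nuclear deacylase SIRT7, are called KO 2, KO 9 and KO 22 after the numbers in their names, which match 3 numbered knockout lines, so each stands for a single line. How the knockout was made and whether the wild-type libraries came from separate animals or cultures was not given in the sources used here, so p-values measure the spread between these libraries only. The other 9 libraries of the labels were not analysed here.

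Matricellular proteins sit in the matrix without being its main load-bearing fibres. They bind collagens, growth factors and cell surface receptors such as integrins, and they tune adhesion, migration and matrix assembly. In skin and tendon many are scarce at rest and abundant during development and wound repair, and several are induced by TGF-beta. Fibronectin is itself a structural adhesive glycoprotein, on whose fibrils other matrix proteins assemble.

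Total counts lay between 61065582 and 61506413 per library, and 37.0% to 37.9% of split counts were assigned to an allele. Over the whole Sirt7 gene WT 1, 2 and 3 held 833, 1107 and 598 counts and KO 2, 9 and 22 held 512, 694 and 787, so the gene total did not set the groups apart (log2 change -0.31, SE 0.27, adjusted p = 0.515). Its transcript Sirt7-201 was nearly absent from knockout, at 2, 0 and 0 counts against 53, 58 and 159, as far as reads can be placed on transcripts. The loss of SIRT7 is therefore taken from the labels. Wild-type libraries were much more alike than knockout lines, with a biological coefficient of variation of 0.136 against 0.379. Among 10796 genes with a mean of at least 5 CPM, where CPM is counts per 1000000 gene counts of a library, the highest library exceeded the lowest by a median of 1.10-fold in wild type and 1.36-fold in knockout. All 14 fibroblast markers were above 1 CPM in some library, and together they took 16983 to 17203 CPM in the wild-type libraries and 25897 to 32782 CPM in the knockout lines. That sum was mostly collagen I and III and Vim, of which the 3 collagen genes were called higher, and the list's median log2 change was -0.03. The fibroblast surface marker Pdgfrb was steady, at 232 to 238 CPM in wild type and 229, 224 and 234 CPM in KO 2, 9 and 22. The surface markers Thy1 and Pdgfra varied between lines. Thy1 was at 98.6 to 101 CPM in wild type and 21.6, 0.195 and 71.5 CPM in KO 2, 9 and 22, and Pdgfra at 68.6 to 76.0 CPM against 9.46, 11.4 and 81.3. Neither was called (adjusted p = 0.479 for Thy1 and 0.463 for Pdgfra). Dcn, a collagen-binding proteoglycan, was at 16.4 CPM in KO 9 against 118 to 194 CPM in the other libraries. Of the markers of other cell types, Ptprc had at most 2 counts, and the macrophage gene Adgre1, the endothelial gene Cdh5, the bone gene Ibsp and the muscle gene Myod1 had 0 counts in all 6 libraries. Other genes of those lists were present, with Runx2 at 36.9 to 62.1 CPM, Tek at 0.588 to 5.51 CPM and Acta1 higher in knockout (18.6 ± 1.84 against 79.0 ± 31.4 CPM, SD, n = 3 each, adjusted p = 0.0158). The 8 smooth muscle markers summed to 9356 to 10223 CPM in wild type against 11762 to 17017 CPM in knockout, mostly from Acta2 and Tagln, which were not called. Within that list Actg2 and Myh11 rose, by 1.95 and 2.39 on the log2 scale, and Cnn1 fell by 3.30.

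The sequences upstream of Thbs2, Tgfbi and Postn are printed because the first pair were the members called lower in knockout and Postn is the paralogue of Tgfbi. RefSeq promoter windows of build GRCm38.p6, from 250 bases before to 50 after a start site, were at hand for 7 members, that is Thbs2, Thbs3, Tnc, Postn, Sparc, Spp1 and Tgfbi. Only bases before the start site and outside annotated exons are shown, 5′ to 3′ on the gene's strand. Capitals mark matches to 6 motifs searched on both strands: the TATA box as TATAAA, the CAAT box as CCAAT, the GC box as GGGCGG, the AP-1 site as TGANTCA, the SMAD box as CAGAC and the TEAD site as GGAATG. A match on the opposite strand stands in the printed run as its reverse complement.
Tgfbi, chr13:56609336-56609522, plus strand: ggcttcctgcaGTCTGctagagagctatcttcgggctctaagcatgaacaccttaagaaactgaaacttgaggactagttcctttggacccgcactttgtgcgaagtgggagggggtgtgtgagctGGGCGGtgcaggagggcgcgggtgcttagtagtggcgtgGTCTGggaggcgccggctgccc
Thbs2, chr17:14694263-14694512, minus strand: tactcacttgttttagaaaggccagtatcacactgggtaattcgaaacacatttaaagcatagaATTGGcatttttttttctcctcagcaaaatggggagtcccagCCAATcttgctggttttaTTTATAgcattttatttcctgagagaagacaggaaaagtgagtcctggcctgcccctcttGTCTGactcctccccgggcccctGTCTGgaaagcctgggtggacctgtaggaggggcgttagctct
Postn, chr3:54360857-54361106, plus strand: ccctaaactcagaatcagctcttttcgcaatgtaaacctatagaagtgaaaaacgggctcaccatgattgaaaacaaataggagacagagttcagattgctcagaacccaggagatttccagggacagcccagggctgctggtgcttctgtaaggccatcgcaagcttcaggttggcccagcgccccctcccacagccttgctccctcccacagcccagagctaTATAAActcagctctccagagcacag
In the stretches printed, Tgfbi had 1 GC box and 2 SMAD boxes, and Thbs2 had 2 CAAT boxes and 2 SMAD boxes. The TATA motif was found 26 bases before the start of Postn. In Thbs2 it lay 126 bases before the start, on the opposite strand. No AP-1 or TEAD match was found in the windows of these 3 genes. Of 32851 windows of the same table, each of 300 bases, 13.6% held the TATA motif, 37.4% the CAAT box, 35.7% the GC box, 7.81% the AP-1 motif, 49.6% the SMAD box and 14.7% the TEAD motif. A match is a description of letters and not a binding site.

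The knockout against wild-type comparison asked which matricellular genes differed in the cells labelled as lacking SIRT7. Of the 9 members, Tgfbi and Thbs2 fell, at an adjusted p under 0.05 in edgeR's quasi-likelihood test across all genes, where 6.73% of genes were called, 3.19% lower and 3.54% higher. The other 7 did not pass. Fn1, Postn, Thbs1, Tnc, Sparc and Thbs3 had higher means in knockout and Spp1 a lower mean. The groups did not overlap in 8 of the 9 members, with Tnc the exception. They were 5 higher and 3 lower in every knockout line, beside 35.9% of all tested genes whose groups did not overlap, 15.7% higher and 20.2% lower. The median log2 fold change was 0.45 over the members and 0.02 over all tested genes. All 9 members had an unadjusted p under 0.05, as did 26.3% of tested genes. The members were proposed with this contrast known, so nothing is read from these shares. In RNA from whole cultures, fewer cells of a kind and less RNA per cell cannot be told apart.

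**Figure D1:**
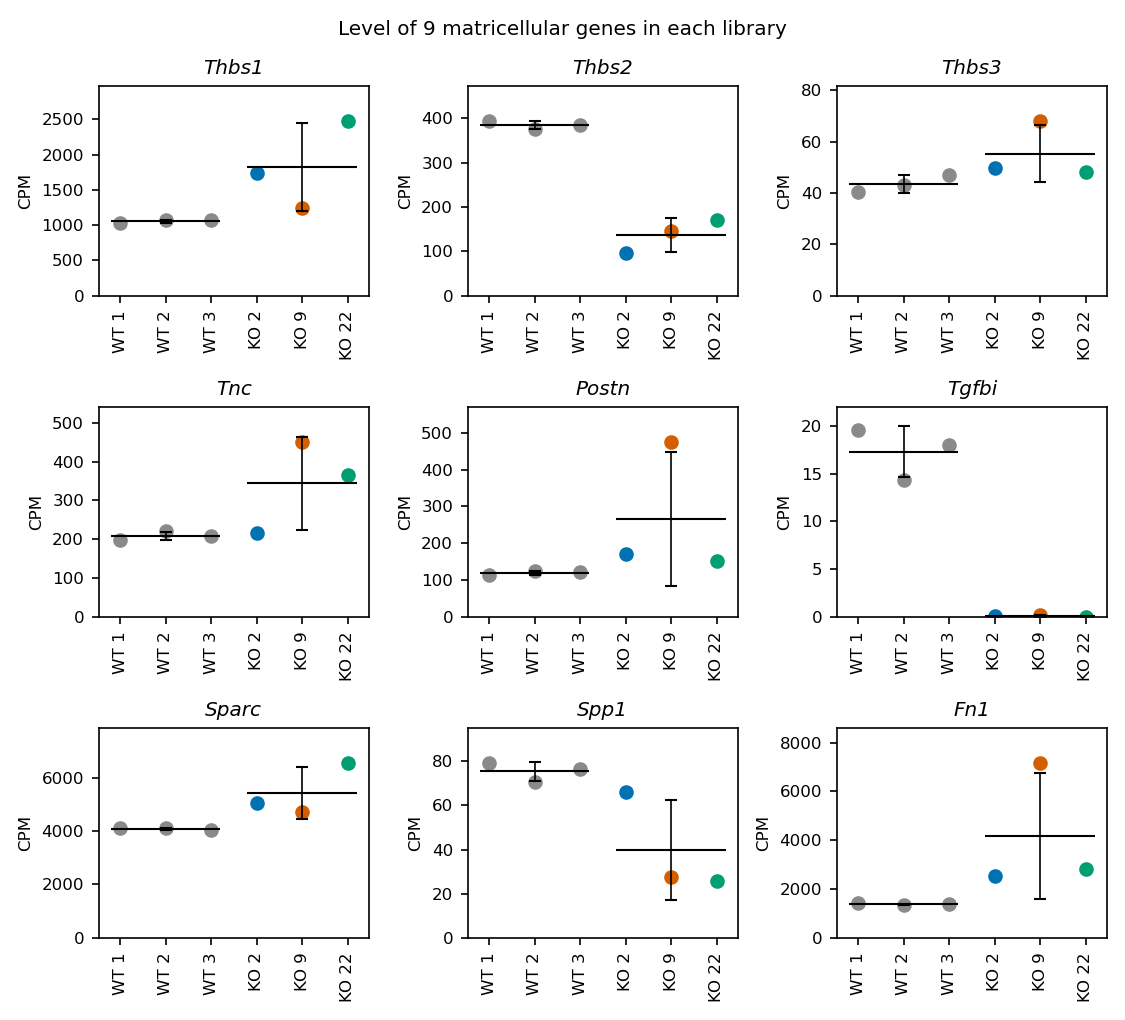
CPM (vertical axis from 0) of each gene in each of the 6 libraries, with horizontal lines for the group means and bars for the SD (n = 3 each), cut off at 0. Tgfbi is near 0 and Thbs2 lower in all 3 knockout lines, and KO 9 stands far above the other lines for Fn1 and Postn.

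Thrombospondins are large secreted glycoproteins that bind calcium. Thbs1 and Thbs2 form trimers and restrain blood vessel growth, and Thbs1 can also release TGF-beta from its latent complex. Thbs1 (ENSMUSG00000040152, chromosome 2, 118111876 to 118127133, plus strand, in GRCm38) had 1025, 1069 and 1068 CPM in WT 1, 2 and 3 and 1743, 1249 and 2475 CPM in KO 2, 9 and 22. All knockout lines lay above wild type, KO 9 by 1.19-fold and KO 22 by 2.35-fold over the wild-type mean. The change missed the threshold (log2 change 0.83, SE 0.24, adjusted p = 0.0899). Without KO 9 it was 1.03, with an adjusted p of 0.0315. Thbs1 did not pass without KO 2 (adjusted p = 0.119), KO 22 (0.0626) or any 1 wild-type library (0.253 to 0.276).

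Thbs2 went the other way. This gene (ENSMUSG00000023885, chromosome 17, 14665500 to 14694235, minus strand) had 394, 376 and 384 CPM in WT 1, 2 and 3 and 95.9, 146 and 170.3 CPM in KO 2, 9 and 22. Every knockout line was far below wild type, at 0.249, 0.379 and 0.442 of its mean. Thbs2 fell (log2 change -1.45, SE 0.22, adjusted p = 0.0194). The median gene of chromosome 17 changed by -0.29, and Thbs2 kept its call with chromosome medians taken out. It lost the call without any 1 of the wild-type libraries, with adjusted p from 0.104 to 0.114 at log2 fold changes from -1.48 to -1.43. In those fits 45 to 51 genes were called in all, against 1123 with all 6 libraries.

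Thbs3, of the thrombospondin subgroup that forms pentamers, was the scarcest of the 3 and the least altered. Thbs3 (ENSMUSG00000028047, chromosome 3, 89215180 to 89226837, plus strand) had 40.3, 43.2 and 47.1 CPM in WT 1, 2 and 3 and 49.7, 68.0 and 48.1 CPM in KO 2, 9 and 22. KO 2 and KO 22 lay just above WT 3, and only KO 9 stood apart, at 1.56 times the wild-type mean (log2 change 0.38, SE 0.16, adjusted p = 0.185). Its exons share 318 bases with Mtx1 on the opposite strand. Mtx1 had 2555 to 2869 counts in wild type and 1726 to 2308 in knockout, and the strand setting of the counting was not given in the sources used here, so reads in the shared bases cannot be told apart.

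Tgfbi and Postn are paralogues with fasciclin domains that bind integrins and collagen, and both are classic TGF-beta induced proteins. Tgfbi (ENSMUSG00000035493, chromosome 13, 56609523 to 56639562, plus strand) was low but present in wild type, where WT 1, 2 and 3 held 1196, 883 and 1106 counts, or 19.6, 14.4 and 18.0 CPM. KO 2, 9 and 22 held 2, 10 and 0 counts. Its RNA was thus close to absent in every knockout line. Tgfbi fell (log2 change -7.98, SE 0.77, adjusted p = 0.00600). The KO 22 library alone, at 0 counts, was at least 353-fold lower than the wild-type mean against a floor of 3 counts, which covers counting error only. The call was lost without any 1 wild-type library (adjusted p = 0.0507 to 0.0584) at a log2 change of -8.11 to -7.88, where 45 to 51 genes were called in all. The fitted size rests on the few KO 9 counts, and without that line it was -9.85. The main coding transcript Tgfbi-201 held 98.1% to 99.5% of Tgfbi counts in wild type and had 0 counts in all 3 knockout lines. The 12 knockout counts were all placed on Tgfbi-204, annotated as a target of nonsense-mediated decay, on which wild type had 1, 5 and 9 counts. In the allele-split reads of wild type, however, Tgfbi-204 took 349, 300 and 332 of the 496, 372 and 453 genome 1 counts, so the placement depended on the set of reads.

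Postn (ENSMUSG00000027750, chromosome 3, 54361109 to 54391037, plus strand) had 112, 124 and 121 CPM in WT 1, 2 and 3 and 170.0, 475 and 152 CPM in KO 2, 9 and 22. Every line was above wild type, but KO 9 stood 3.99-fold over the wild-type mean and the others 1.27-fold and 1.43-fold. The change missed the threshold (log2 change 1.19, SE 0.43, adjusted p = 0.146). KO 9 set both its size and its error: without that line it was 0.46, with an adjusted p of 0.0362. Postn did not pass without KO 2 (adjusted p = 0.107), KO 22 (0.0687) or any 1 wild-type library (0.325 to 0.355). The paralogues thus lay on opposite sides of wild type in all 3 lines.

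Tenascin C is an extended, many-armed glycoprotein of healing wounds and tendon that loosens adhesion to fibronectin. Tnc (ENSMUSG00000028364, chromosome 4, 63959785 to 64047015, minus strand) had 199, 220.3 and 207 CPM in WT 1, 2 and 3 and 215, 451 and 366 CPM in KO 2, 9 and 22. KO 2 lay within the wild-type range, while KO 9 and KO 22 were at 2.16 and 1.75 times the wild-type mean (log2 change 0.76, SE 0.26, adjusted p = 0.127). Without KO 2 it was 1.01, with an adjusted p of 0.0134. Tnc did not pass without KO 9 (adjusted p = 0.236), KO 22 (0.179) or any 1 wild-type library (0.292 to 0.333).

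Fibronectin had the largest fitted increase of the 9, which did not pass the threshold. Fn1 (ENSMUSG00000026193, chromosome 1, 71585520 to 71653200, minus strand) had 1403, 1339 and 1364 CPM in WT 1, 2 and 3 and 2547, 7163 and 2822 CPM in KO 2, 9 and 22. KO 2 and KO 22 were at 1.86 and 2.06 times the wild-type mean and KO 9 at 5.23 times. It missed the threshold over all 6 libraries (log2 change 1.64, SE 0.40, adjusted p = 0.0613). It passed without any 1 of the knockout lines (adjusted p = 0.00935 to 0.0401), and without KO 9 the log2 change was 1.001. Without a wild-type library the adjusted p was 0.210 to 0.217, where 45 to 51 genes were called in all. It also passed with DESeq2 (adjusted p = 3.03e-04) and with limma-voom under separate group weights (adjusted p = 0.0313).

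Sparc, a collagen-binding glycoprotein needed for collagen processing, was the most abundant member. Sparc (ENSMUSG00000018593, chromosome 11, 55394500 to 55423183, minus strand) had 4112, 4104 and 4024 CPM in WT 1, 2 and 3 and 5041, 4700.2 and 6549 CPM in KO 2, 9 and 22. The groups did not overlap, with folds of 1.24, 1.15 and 1.61 over the wild-type mean (log2 change 0.45, SE 0.14, adjusted p = 0.109). Sparc passed without KO 22, at a log2 change of 0.27 (adjusted p = 0.0407), and with DESeq2 (adjusted p = 0.0455). It did not pass without KO 2 (adjusted p = 0.0982), KO 9 (0.0751) or any 1 wild-type library (0.290 to 0.308). Spp1 codes for osteopontin, a phosphoprotein of bone, macrophages and wounds that binds integrins and CD44. Spp1 (ENSMUSG00000029304, chromosome 5, 104435118 to 104441050, plus strand) had 79.3, 70.6 and 76.5 CPM in WT 1, 2 and 3 and 66.1, 27.5 and 25.9 CPM in KO 2, 9 and 22. KO 2 was close to wild type and the other lines were at 0.364 and 0.344 of its mean (log2 change -0.90, SE 0.35, adjusted p = 0.170). Without KO 2 the log2 fold change was -1.46, with an adjusted p of 0.00466. Spp1 did not pass without KO 9 (adjusted p = 0.299), KO 22 (0.244) or any 1 wild-type library (0.321 to 0.373).

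Markers of macrophages were given beside Spp1 because those cells also make it, and markers of tenocytes because their sum was seen to differ between the groups. The 10 macrophage and leukocyte markers summed to 9.80 to 10.2 CPM for wild type and 7.47 to 11.4 CPM for knockout, nearly all from Cd68 and Cd14, and 4 were at 0 in every library. Of the 5 tenocyte markers 4 were tested, with 2 called higher and 2 not called. The 5 together summed to 18.1 to 18.6 CPM for wild type and 49.0 to 69.4 CPM for knockout. Among them Scx, a tendon transcription factor, rose from 6.20 ± 0.647 CPM in wild type to 34.7 ± 12.5 CPM (SD, n = 3 each) with a log2 change of 2.51 (adjusted p = 0.00915), while Tnmd, a marker of mature tendon cells, had at most 11 counts. The part of these markers in the members' changes was not tested.

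**Figure D2:**
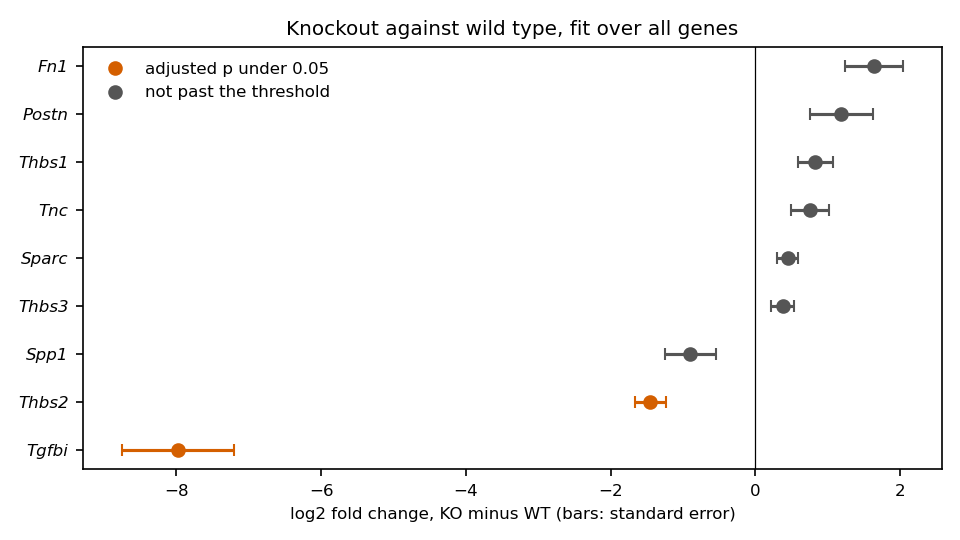
Log2 fold change of each member, knockout minus wild type (horizontal axis), from edgeR's fit over 16678 genes, with bars for the standard error. Tgfbi at -7.98 and Thbs2 at -1.45 passed the threshold, and the members from Thbs3 at 0.38 to Fn1 at 1.64 had positive values that did not.

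Knockout lines differed more from each other in these genes than wild-type libraries did. The highest knockout line exceeded the lowest by 1.39-fold for Sparc, 1.41-fold for Thbs3, 1.78-fold for Thbs2, 1.98-fold for Thbs1, 2.1-fold for Tnc, 2.55-fold for Spp1, 2.81-fold for Fn1 and 3.14-fold for Postn. The median tested gene above 5 CPM differed by 1.36-fold between knockout lines, with a 90th percentile of 2.13-fold. Only Spp1, Fn1 and Postn lay above that percentile. Tgfbi has no such ratio because KO 22 had 0 counts. KO 9 was the highest line for Fn1, Postn, Tnc, Thbs3 and Tgfbi, KO 22 for Thbs1, Thbs2 and Sparc, and KO 2 for Spp1. Together the 9 genes took 0.735% ± 0.00386 of a wild-type library and 1.23% ± 0.220 of a knockout library (SD, n = 3 each), with 0.993%, 1.43% and 1.26% in KO 2, 9 and 22.

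Levels were also set in order per length, as CPM per kilobase of annotated exons. In wild type the order was Sparc at 1077 ± 12.9, Thbs1 at 174 ± 4.16, Fn1 at 117 ± 2.77, Thbs2 at 55.0 ± 1.28, Spp1 at 45.8 ± 2.68, Tnc at 26.9 ± 1.38, Postn at 13.7 ± 0.720, Thbs3 at 9.02 ± 0.704 and Tgfbi at 4.59 ± 0.707 (mean ± SD, n = 3). The ranges of neighbours in that order did not overlap. In knockout Sparc stayed first at 1433 ± 259.7 and Tgfbi last at 0.0173 ± 0.0228, and Fn1 at 357 ± 222 stood above Thbs1 at 300.1 ± 102. Tnc at 44.2 ± 15.4, Postn at 30.5 ± 20.9, Spp1 at 24.2 ± 13.8, Thbs2 at 19.6 ± 5.42 and Thbs3 at 11.5 ± 2.29 followed. There the ranges of Fn1 and Thbs1 overlapped, as did those of each neighbouring pair from Tnc down to Thbs3. The order in wild type was the same with the longest annotated transcript as length. In knockout that length put Postn, at 50.9 ± 34.8, above Tnc, at 48.4 ± 16.8.

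The hybrid cells allowed the alleles to be counted apart, as reads assigned to genome 1 or genome 2; which strain is which was not given in the sources used here. Allelic ratios were tested over 12984 genes with edgeR, and 23.0% of them were called between knockout and wild type. Shares did not overlap between groups in 44.0% of genes with a share in every library. Whole chromosomes differed: on chromosome 1, which carries Fn1, genome 1 had 36.3% to 37.3% of counts in wild type and 59.2% to 64.9% in knockout. The median share of genes within 5 Mb of a member is therefore given beside the member's own. Of the 9 members, the ratio changed in Fn1 and Thbs3.

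For Fn1 genome 1 had 53.4%, 49.4% and 48.4% of allele-assigned counts in wild type, and 63.1%, 74.3% and 70.3% in KO 2, 9 and 22 (log2 allelic ratio change 1.16, SE 0.22, adjusted p = 0.0123). The median of 53 genes around it went from between 39.6% and 40.5% to between 64.9% and 70.5%, so the neighbours moved the same way and further. For Thbs3 the share was 48.5%, 52.6% and 50.1% in wild type and 73.7%, 66.0% and 68.7% in KO 2, 9 and 22 (log2 allelic ratio change 1.17, SE 0.21, adjusted p = 0.0105). Its 118 neighbours had medians of 53.7% to 54.6% in wild type and 66.4% to 74.5% in knockout. The neighbours thus moved the same way, from a wild-type level slightly above that of Thbs3. Genome 1 of Fn1 stood at 2.20, 6.99 and 2.58 times its wild-type mean in KO 2, 9 and 22. Genome 2 stood at 1.3, 2.46 and 1.11 times its own mean. Both alleles thus gave more in KO 2 and KO 9. In KO 22 genome 2, at 413 CPM of the split counts, was close to WT 2 at 412. For Thbs3 genome 1 was at 1.68, 1.97 and 1.58 times its mean and genome 2 at 0.611, 1.03 and 0.737 times, so more from one allele went with less or the same from the other. The Fn1 call was lost without WT 2 (adjusted p = 0.0576) or WT 3 (0.0594), and that of Thbs3 without WT 1 (0.0538) or WT 3 (0.0522).

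**Figure D3:**
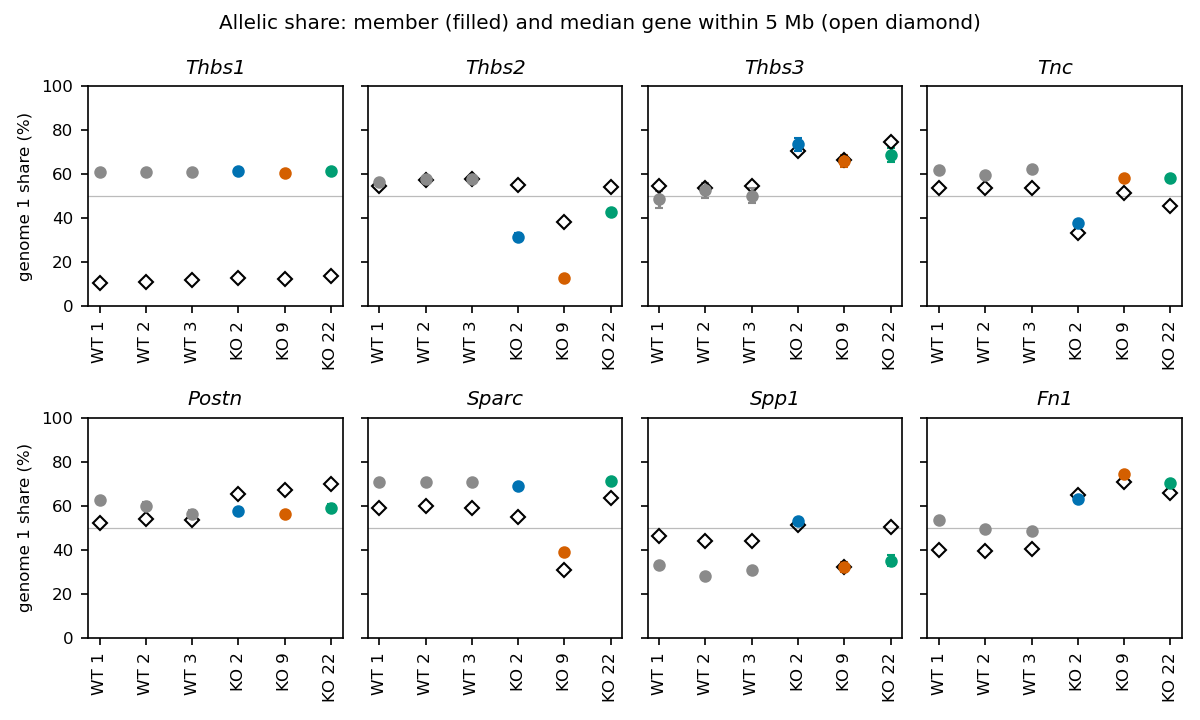
Share of allele-assigned counts from genome 1 (percent, vertical axis) for 8 members in each library, as filled points with 95% Wilson intervals, and the median gene within 5 Mb as open diamonds. Fn1 and Thbs3 move the same way as their neighbours, Thbs2 falls to 12.9% in KO 9, and Thbs1 stays near 61% while its neighbours' median is 10.7% to 13.6%, in a region whose heterozygosity was not tested.

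Thbs2 was lower from both alleles in every line, with the smaller remainder from genome 1, a difference that missed the threshold. Genome 1 gave 56.4%, 57.7% and 57.9% of its counts in wild type, and 31.5%, 12.9% and 42.7% in KO 2, 9 and 22. In CPM of the split counts, genome 1 went from 127 to 129.9 in wild type to 17.3, 10.4 and 41.0 in KO 2, 9 and 22, and genome 2 from 93.5 to 99.3 to 37.6, 70.2 and 55.1. The allelic change over 6 libraries was not called (log2 allelic ratio change -1.84, SE 0.58, adjusted p = 0.0713), and it passed without KO 9 (-1.20, adjusted p = 0.0144) and without KO 22 (-2.36, adjusted p = 0.0319). The median of 41 neighbours was 54.5% to 57.8% in wild type and 55.0% and 54.0% in KO 2 and KO 22, with 38.2% in KO 9, so the Thbs2 share lay below that of its surroundings in all 3 knockout lines.

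Postn showed the reverse arrangement. Its genome 1 share was 62.4%, 60.0% and 56.3% in wild type and 57.3%, 56.3% and 59.1% in KO 2, 9 and 22, while the median of its 45 neighbours went from between 52.3% and 53.8% to between 65.3% and 69.8%. In KO 9 both Postn alleles were higher than in wild type, by 3.77-fold for genome 1 and 4.30-fold for genome 2. Postn lies on the same chromosome as Thbs3, whose share moved with its surroundings.

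For Sparc a single line stood apart. Genome 1 had 70.8%, 70.6% and 70.7% in wild type, 68.8% and 71.2% in KO 2 and KO 22, and 38.7% in KO 9 (95% Wilson interval 38.5% to 39.0%, counting error only). In KO 9 genome 1 was at 0.639 and genome 2 at 2.44 times the wild-type mean of that allele, although total Sparc was at 1.15 times. The median of 93 neighbours was 58.7% to 59.8% in wild type, 54.8% and 63.4% in KO 2 and KO 22, and 31.0% in KO 9. All other genes of chromosome 11 together had 30.9% in KO 9 and 56.2% to 62.4% in the other libraries.

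Tnc and Spp1 each had a share in KO 2 that stood apart from those of the other 5 libraries. The Tnc share was 62.0%, 59.6% and 62.5% in wild type, 58.4% and 58.0% in KO 9 and KO 22, and 37.8% in KO 2, where the median of its 33 neighbours was 33.4% against 53.5% to 53.7% in wild type, 51.6% in KO 9 and 45.5% in KO 22. All other genes of chromosome 4, which carries Tnc, together had 33.3% in KO 2 and 48.2% to 53.3% in the other libraries. Spp1 had 33.2%, 27.9% and 30.9% in wild type, 32.2% and 35.0% in KO 9 and KO 22, and 53.0% in KO 2. The median of its 58 neighbours was 44.0% to 46.0% in wild type, 51.2% in KO 2, 32.0% in KO 9 and 50.3% in KO 22, so Spp1 lay near its surroundings in KO 2 and KO 9 and below them elsewhere. Genome 1 of Spp1 was at 1.50 times the wild-type mean in KO 2 and genome 2 at 0.594 times, while the alleles were at 0.320 to 0.388 of theirs in the other lines. Neither ratio passed the test (adjusted p = 0.291 for Tnc and 0.297 for Spp1). Tgfbi had 79.0%, 84.7% and 79.8% from genome 1 in wild type, where its neighbours' median was 54.3% to 55.3%, and its knockout reads held only 3 allele-assigned counts, all from genome 1 in KO 9, so no change of its ratio can be read.

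**Figure D4:**
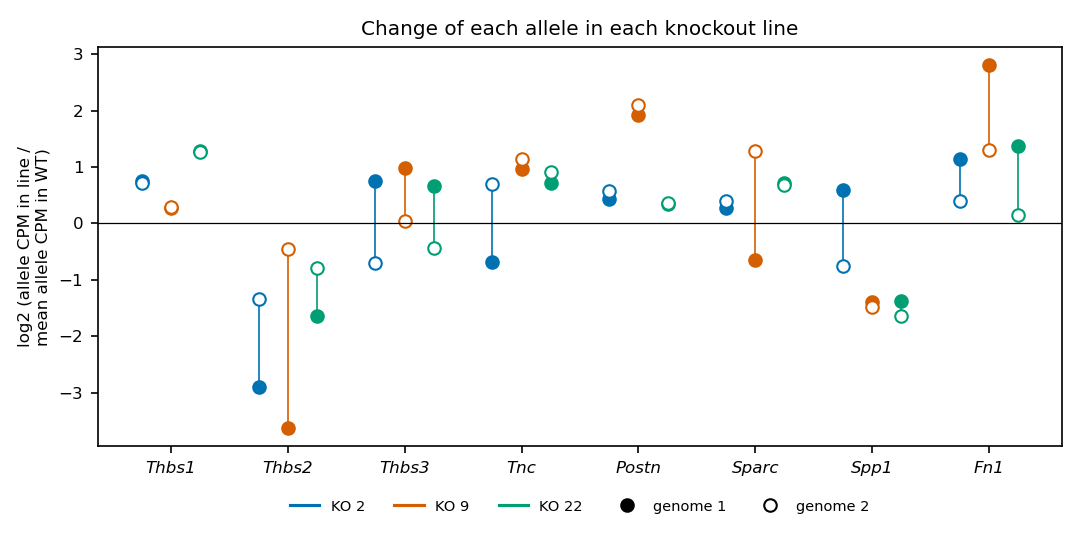
Log2 ratio of each allele's CPM in a knockout line to that allele's wild-type mean (vertical axis), with filled points for genome 1, open points for genome 2 and a colour per line. The alleles lie together for Thbs1 and Postn, and apart for Thbs2, Fn1 and Thbs3 in every line. For Sparc they lie far apart only in KO 9, and for Tnc and Spp1 only in KO 2.

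The division of a gene's reads among its transcripts is itself estimated, and for several members it was unsteady. In KO 9 Sparc-201 took 94.6% of Sparc counts and Sparc-202 4.5%, while Sparc-202 took 94.3% to 94.8% in the other 5 libraries. These transcripts differ in the length of the first exon and by 3 bases of another exon. When reads were split by allele, Sparc-202 held 96.1% of genome 1 and 97.0% of genome 2 counts in KO 9 as well, and only the unassigned reads were placed on Sparc-201 (95.3%). The KO 9 estimate from all reads was thus not seen in either allele's reads. Thbs3-201 took 29.4%, 61.6% and 88.5% of Thbs3 counts in WT 1, 2 and 3, so its spread within wild type covered the knockout values of 32.1% to 39.8%. For Fn1 all reads gave 38.0% to 42.2% on the retained-intron transcript Fn1-202 in every library, while minor transcripts varied, with Fn1-215 at 0.446% to 0.653% in wild type and KO 2, 3.86% in KO 9 and 5.50% in KO 22. In the allele-split reads Fn1-202 received 1, 7492 and 3 counts from genome 2 of WT 1, 2 and 3, which differ far beyond any gene-level spread. Differences in transcript use were therefore not compared between groups.

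Related genes were read from the same fit through lists chosen by function. Over all tested genes 6.73% were called, 3.54% higher and 3.19% lower. Of 20 tested matricellular genes outside the 9, 2 rose, 2 fell and 16 did not pass, with a median log2 fold change of 0.06 against 0.02 for all genes. Pxdn, a peroxidase that crosslinks collagen IV, rose from 244 ± 1.86 CPM in wild type to 410.4 ± 39.8 CPM (SD, n = 3 each, as for the other means; adjusted p = 0.0140), and the integrin ligand Mfge8 rose by 0.72 on the log2 scale (adjusted p = 0.0215). Tnxb, a tenascin of elastic connective tissue, fell from 9.77 ± 0.944 to 2.27 ± 0.548 CPM (adjusted p = 0.00766), and Angptl4 from 14.0 ± 1.79 to 1.83 ± 1.41 CPM (adjusted p = 0.0364). The TGF-beta and YAP responsive Ccn2 had a log2 fold change of 0.62 (adjusted p = 0.353) and Ccn1 of -0.24 (adjusted p = 0.631).

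Of 22 tested receptor genes, 1 rose and 21 did not pass, with a median of 0.33. The riser was Itgb1, the beta subunit of most fibronectin, tenascin and collagen receptors, from 1084 ± 53.5 to 1758.0 ± 123 CPM (adjusted p = 0.0125). The thrombospondin receptor Cd47 averaged 72.3 ± 14.1 CPM in wild type and 74.6 ± 17.3 in knockout (adjusted p = 0.857). Another thrombospondin receptor, Cd36, was too low to be tested.

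The TGF-beta ligands, latency proteins, receptors and SMADs had 1 rise, 1 fall and 21 genes not past the test among 23, with a median of 0.06. The co-receptor Eng rose from 29.2 ± 0.729 to 76.1 ± 20.7 CPM (adjusted p = 0.0180) and the co-receptor Tgfbr3 fell from 132 ± 4.81 to 57.9 ± 12.2 CPM (adjusted p = 0.0179). Among 24 TGF-beta target genes that are no members, 5 rose, 2 fell and 17 did not pass, with a median of 0.19. The collagens Col1a2 (log2 change 1.25) and Col1a1 (0.93) were among the risers, and Timp3 (-0.82), a metalloproteinase inhibitor, and Cnn1 (-3.30), a contractile protein, fell. Of 22 YAP target genes, with a median of 0.11, edgeR called 0. Its unadjusted p was under 0.05 in 4 of them, beside 26.3% of all tested genes. DESeq2 called 3 of them and limma-voom 1, beside 2908 and 1290 of all 16678 tested genes.

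Among 30 proteases and binding partners of matricellular proteins, 3 rose, 2 fell and 25 did not pass, with a median of 0.10. Adamts1, a protease that cleaves thrombospondins, rose from 131 ± 8.81 to 349.6 ± 120 CPM (adjusted p = 0.0307), and Bmp1, which trims procollagens, by 0.64 on the log2 scale (adjusted p = 0.0444). Plaur, the urokinase receptor, fell from 41.2 ± 3.63 to 14.7 ± 4.36 CPM (adjusted p = 0.0190). These lists share genes such as Col1a1, and 18 different genes were called over all of them, beside 1123 of all 16678 tested genes. The number of different listed genes tested is not given here, so no share is read from the 18. Without any 1 of the wild-type libraries 0 or 1 listed gene was called, and 45 to 51 genes in all.

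**Figure D5:**
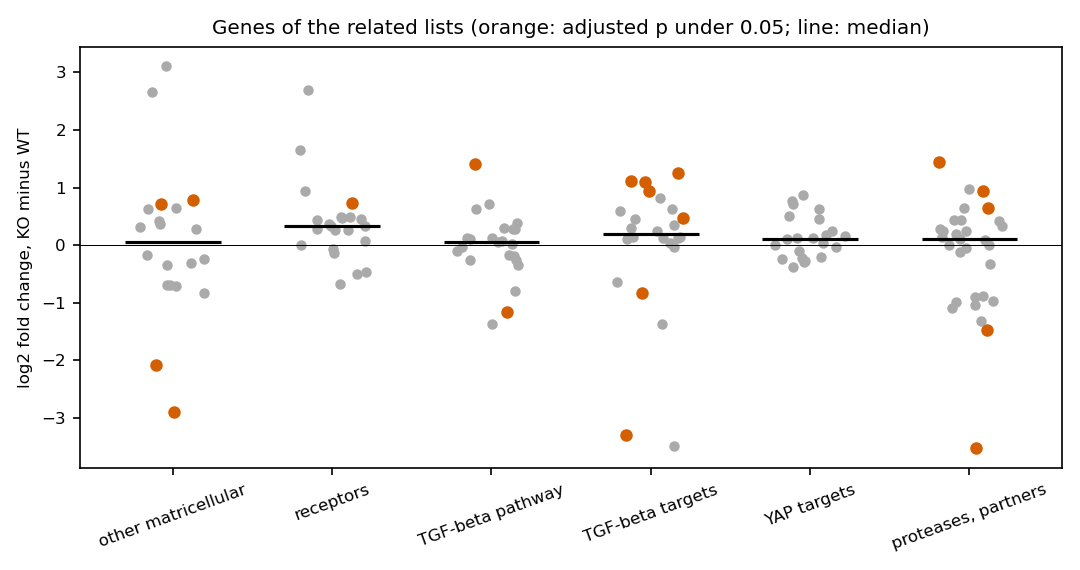
Log2 fold change, knockout minus wild type (vertical axis), of the tested genes in 6 related lists without the 9 members, with orange points past an adjusted p of 0.05 and black lines for the medians. The medians lie between 0.06 and 0.33, and called genes are found on both sides of 0 in 4 of the lists.

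The genes most like each member over the 6 libraries were found by Pearson's r of log2 CPM among protein-coding genes with a mean of at least 5 CPM, as a description with no test. They were Cryab for Thbs1 (r = 0.999), Atf4 for Thbs2 (0.998), Wrn for Thbs3 (0.995), Cxcl12 for Tnc (0.9995), Slc66a2 for Postn (0.997), Mxd4 for Sparc (0.995), Uqcc2 for Spp1 (0.9997), Klf4 for Tgfbi (0.997) and Cap1 for Fn1 (0.999). These values rest on 6 points in 2 groups. Klf4 had 59.3, 65.0 and 65.1 CPM in WT 1, 2 and 3 and 13.9, 20.04 and 11.4 CPM in KO 2, 9 and 22.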

How the data were processed

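Estimated counts per gene and per transcript were deposited for all reads, and separately for reads assigned to genome 1, to genome 2 or to neither. The submitters' processing notes name StringTie 1.3.3, HISAT2 2.1.0, DESeq2 1.32.0, Trimmomatic 0.36, FastQC 0.11.3 and SAMtools 0.1.19 and the builds mm10 and GRCm38, without roles or settings. The values are whole numbers and were read as estimated counts because the notes name StringTie. Column names gave the samples. The knockout columns fit the titles of lines 2, 9 and 22; whether they were sequenced together with wild type was not given in the sources used here, so a sequencing set and genotype cannot be told apart. Coordinates and transcript names are from GENCODE M21 (GRCm38).

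Genes were compared with edgeR 4.0.16 in R 4.3.3 (quasi-likelihood test, TMM scaling, default filter on low counts, Benjamini-Hochberg adjustment over all genes). Each SE was the size of the log2 fold change over the square root of F. Allelic ratios used the same test with library as a term and the interaction of allele and group tested, on genes whose mean allele-assigned count was 20 or more. Alternatives were DESeq2 1.42.0, limma 3.58.1 (voom with group weights), other scaling, no filter, chromosome medians taken out, other allele minimums and leaving out each library. With 3 libraries against 3, an exact two-sided test cannot go below p = 0.10. Both tests were checked on simulated counts. Some listed genes are not reported here. Members and lists were chosen with earlier results of these data known. The rule for named genes took all members, up to 4 called genes per list and the 3 most similar genes per member, of which the first is given; other genes named were chosen after their values were seen.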

Additional observations from a re-analysis of the deposited data

How the results depend on the processing

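Of 163 member values under other settings, 136 kept their direction and side of the threshold, 10 lost their call, 16 gained it and 1 changed sign, that of the Thbs1 allelic ratio without KO 2 (-0.00253 against 0.01; 0.0270 without KO 9 was its highest). Tgfbi and Thbs2 stayed called with DESeq2, limma-voom, RLE scaling, no filter on low counts and chromosome medians taken out, and without any 1 knockout line; both lost the call without any 1 wild-type library. DESeq2 called 7 members, 38 listed genes and 2908 genes in all, against 2, 18 and 1123. With no filter on low counts 396 genes and 11 listed genes were called, and with chromosome medians taken out 666 genes; the cause was not tested. Leaving out each library gave 45 to 2482 called genes, 0 to 5 members and 0 to 35 listed genes, with the lowest counts without a wild-type library and the highest without KO 22 or, for members, without KO 2 or KO 9. For allelic ratios it gave 1710 to 3822 called genes and 0 to 3 members. No paired analysis was possible because the columns of the groups share only the number 2, which names a wild-type replicate and a knockout line. Depth limits Tgfbi in knockout, where 12 counts in all allow no allelic or transcript comparison.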

Other observations

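The allelic share of Thbs1 stood apart from its surroundings. It was 60.5% to 61.5% in all 6 libraries, while the median of 89 genes within 5 Mb was 10.7% to 13.6%. Of these 89 genes, 49 were under 20% in every library and 22 were at 40% or more in every library. Named after their values were seen, Spred1 and Fam98b, which start 990.5 kb and 862.1 kb before Thbs1, had 100% of their allele-assigned counts from genome 1 in every library, and Srp14, which starts 364 kb after it, had at most 0.382%. Whether these cells are heterozygous throughout this region was not tested, so shares there, that of Thbs1 included, may not compare the alleles.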
